A study of Mus musculus with 6 samples.

Results

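Interferon-stimulated genes are the genes that a cell switches on when interferon binds its receptors. The 42 examined here are classic type I and type II interferon-induced genes with their nucleic acid sensors and their Irf and Stat regulators, out of 22098 gene symbols measured. They were taken as a fixed list of symbols, and where a symbol had several transcript rows (9 members) the row with the highest mean stood for it. All 42 were in the table. The RNA came from cultured mouse pro-B leukaemia cells, a model of acute lymphoblastic leukaemia grown from C57BL/6 bone marrow that was transduced at day 0 with a retrovirus carrying BCR-ABL-p185 and a YFP reporter. All groups carry that oncogene, a fused tyrosine kinase made by the Philadelphia chromosome. The 3 genotypes were wild type (wt) and 2 homozygous mutants of the transcription factor Ikaros, labelled Ikaros_ZnF1-/- and Ikaros_ZnF4-/-, named for the zinc finger of the DNA-binding domain that each lacks, the first or the fourth, and written ZnF1 and ZnF4 mutant below. Each was sampled at day 21 and day 28 with 1 library per genotype and day, so n = 2 per genotype. Whether the 2 days of a genotype are separate cultures is not in the labels. The fit removes the day change that the genotypes share. Its p-values therefore measure only how far the day changes of the genotypes differ, and no spread between cultures. Whole marrow was transduced, and the labels name no sorting of the cells.

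Type I interferons signal through Ifnar1 and Ifnar2 and the kinases Jak1 and Tyk2 to a complex that includes Stat2 and Irf9 and binds the interferon-stimulated response element (ISRE) in target promoters. Type II interferon, interferon gamma, signals through Ifngr1 and Ifngr2 to promoters that hold the gamma-activated site (GAS). The induced genes encode RNA sensors, antiviral effectors and families of GTPases that attack intracellular pathogens, and many are also kept at a low level in resting cells. Macrophages are strong expressers of much of this programme.

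Levels are the deposited RPKM (read counts divided by the length of the transcript and by the number of mapped reads), and pairs of values below are always day 21 and then day 28. A difference is given in log2(RPKM + 1) units, with the standard error that limma estimated over the 6 libraries, and "higher", "lower", "rose" and "fell" are used for genes with an adjusted p below 0.05. The depth of the libraries is unknown, and between 10401 and 11233 symbols reached 1 RPKM in a library. The transcript of the mutated gene, Ikzf1, had 89.2 and 78.7 RPKM in wt, 108 and 91.4 in the ZnF1 mutant, against 186 and 165.9 in the ZnF4 mutant. These values cover whole transcripts and cannot check a single finger. All 12 pro-B markers on the list were tested, and their summed level ran from 2639.7 to 3104.9 RPKM. Single markers moved within it: Rag1 and Rag2, the recombinase genes, rose in both mutants (Rag1 by 1.72 in ZnF1 and 2.08 in ZnF4). In the ZnF4 mutant Igll1 and Vpreb2, of the surrogate light chain, also rose (0.54 and 0.57), and Dntt, the terminal transferase, fell by 2.06 on the log2 scale.

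Markers of macrophages also differed between the genotypes. All 17 tested macrophage markers rose in the ZnF1 mutant, with a median difference of 2.21, and 10 of 17 fell in the ZnF4 mutant, with a median of -0.76. Over all tested genes 22.9% rose in the ZnF1 mutant and 7.32% fell in the ZnF4 mutant. The summed level of 19 macrophage genes was 680.8 and 453.3 RPKM in wt, 2554.0 and 2462.1 in the ZnF1 mutant, against 299.8 and 357.9 in the ZnF4 mutant. Of these, Lyz1 and Cd163 stayed below 1 RPKM in every library. Stromal markers ran the same way between wt and the ZnF1 mutant, with 10 of 11 higher and sums of 42.9 and 26.0 RPKM in wt, 175.6 and 167.8 in the ZnF1 mutant, against 28.2 and 21.8 in the ZnF4 mutant. Of 10 T and natural killer cell markers 5 were listed at 0 in every library, and only Cd4 was tested. It had 0.4 and 0.2 RPKM in wt and 8.5 and 7.2 in the ZnF1 mutant, a rise of 2.77, while the ZnF4 libraries had at most 0.1. Cd4 thus entered the test through the ZnF1 libraries alone, in which it was high, so its call supports nothing. Of 8 plasmacytoid dendritic cell markers, Ccr9 and Klk1 were listed at 0 throughout and 3 were tested. Lair1 and Cox6a2 rose in the ZnF1 mutant (1.52 and 1.48), while Tcf4 rose in the ZnF4 mutant (0.76). The list's sum was 28.2 and 26.9 RPKM in wt, 39.9 and 36.0 in the ZnF1 mutant, against 45.5 and 49.3 in the ZnF4 mutant. Of 10 granulocyte markers only S100a8 was tested, and it rose in the ZnF1 mutant by 1.07. In such bulk RNA fewer cells of a type and less RNA per cell cannot be told apart. What part the RNA of these other cell types had in the values below, of members and of other genes, was not tested.

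**Figure D1:**
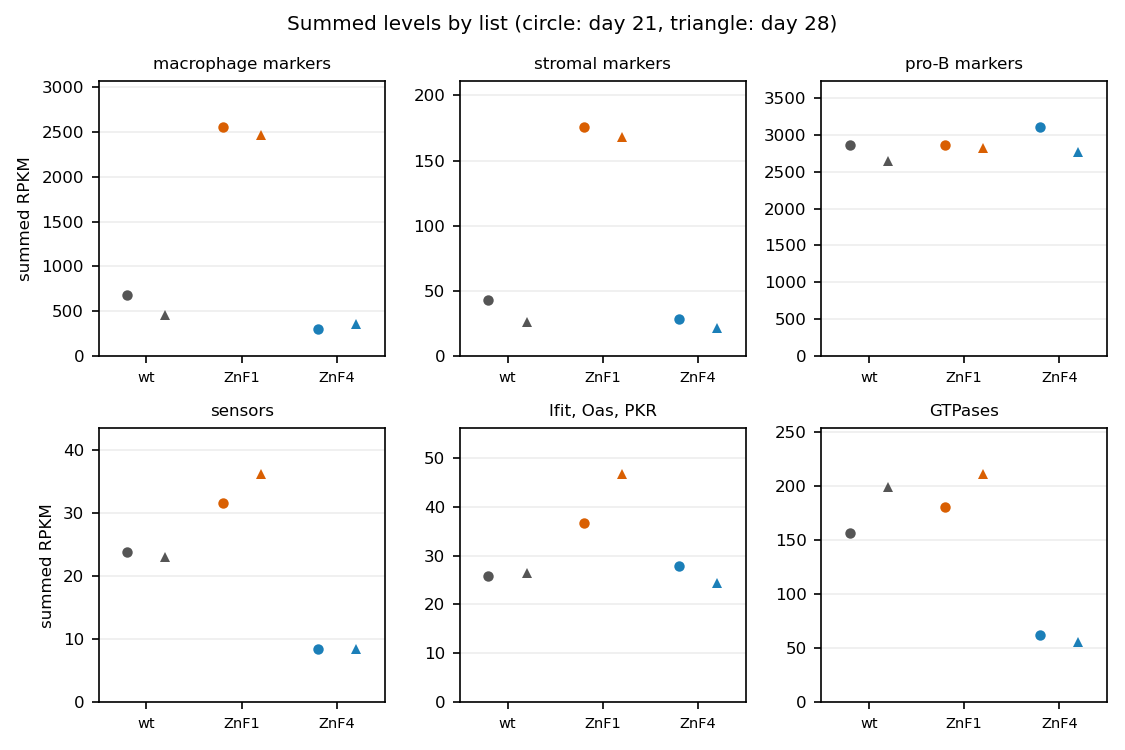
Summed RPKM of 3 cell type marker lists and of 3 groups of interferon-stimulated genes (vertical axes) in wild type, ZnF1 mutant and ZnF4 mutant libraries; each point is 1 library, circles day 21 and triangles day 28. Macrophage and stromal sums are highest in the ZnF1 mutant, pro-B sums lie close together, and the GTPase sum is lowest in the ZnF4 mutant (62.0 and 56.2 RPKM).

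The members spanned a wide range of levels. On the RPKM scale, which is per length, 8 members had at least 10 RPKM in every library (Gbp3, Ifitm3, Bst2, Irgm1, Trim30a, Ifi35, Eif2ak2 and Irf1), and 25 had at least 1 RPKM in every library. In wt the highest levels were those of Gbp2 (58.4 and 90.9 RPKM), Gbp3 (37.8 and 49.5 RPKM) and Irgm1 (30.0 and 29.0 RPKM). Several textbook antiviral genes were near the floor of the table in the same cells, such as Rsad2 at 0.2 RPKM on both days, Mx1 at 0.1 RPKM on both days and Ifit1 at 0.5 RPKM on both days. Gbp6 was listed at 0 in all libraries. To be tested a gene had to reach 1 RPKM in 2 libraries, and 36 members did. The other 6 (Oas1a, Oasl1, Mx1, Mx2, Gbp6 and Ifi44) are given as values. Among the 36, Ifit1, Ifit3, Oas2, Oas3, Oasl2, Rsad2 and Iigp1 had fewer than 2 libraries at 1 RPKM outside the ZnF1 mutant, so most of them entered the test through the group in which they were high.

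**Figure D2:**
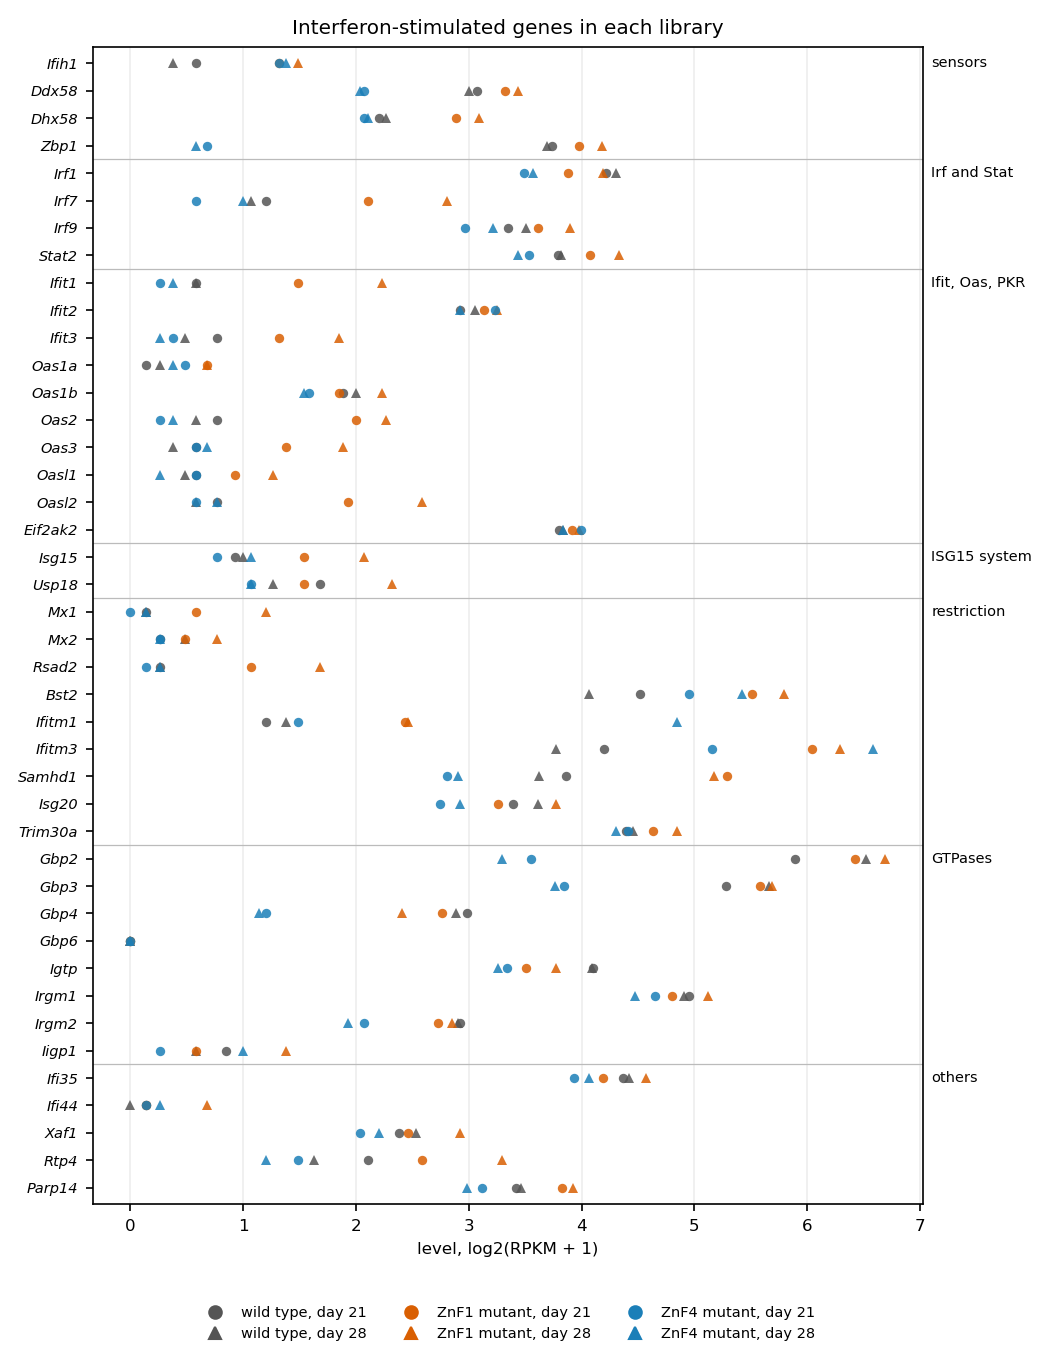
Level of each of the 42 interferon-stimulated genes in each library, as log2(RPKM + 1) on the horizontal axis, grouped by role; grey is wild type, orange the ZnF1 mutant, blue the ZnF4 mutant, circles day 21 and triangles day 28. Orange points lie to the right for most sensors, Ifit and Oas genes, and blue points lie to the left for Zbp1 and the Gbp genes.

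Against wt, the members rose in the ZnF1 mutant more often than they fell, and in the ZnF4 mutant they fell more often than they rose. Higher in the ZnF1 mutant were 19 of 36 tested members, where 22.9% of all 11379 tested genes were, and 1 was lower (Igtp), where 15.2% of all genes were. The median difference of the members was 0.38, against -0.02 for all genes. The ZnF4 mutant had 2 members higher (Ifih1 and Ifitm3), with 10.9% of all genes, and 12 were lower, with 7.32% of all genes. The median there was -0.34, against 0.02 for all genes. Leaving aside the 7 members that had fewer than 2 libraries at 1 RPKM outside the ZnF1 mutant, 13 of 29 were higher and 1 lower in the ZnF1 mutant (median 0.34), and 2 were higher and 12 lower in the ZnF4 mutant (median -0.38). These comparisons share the wt libraries.

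The mutants were also compared with each other. None of the 36 members was higher in the ZnF4 mutant than in the ZnF1 mutant, where 22.3% of all genes were, and 27 were lower, where 23.2% of all genes were. The median member difference was -0.81, against 0.03 for all genes. Without the 7 members named above, 21 of 29 were lower and 0 higher, with a median of -0.68. Under quantile scaling the median of all genes moved to -0.120 for the ZnF1 mutant against wt and to 0.116 for the ZnF4 against the ZnF1 mutant. The split of called genes then became 2047 higher and 2913 lower in place of 2606 and 1730 in the former comparison, and 3431 higher and 2359 lower in place of 2540 and 2637 in the latter. Under the same scaling 15 members were higher and 3 lower in the ZnF1 mutant than in wt, with a median of 0.34, and 26 were lower in the ZnF4 than in the ZnF1 mutant, with a median of -0.60.

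A criterion without a test asked for a difference of at least 2-fold, on the log2(RPKM + 1) scale, on both days. That much higher than wt in the ZnF1 mutant were 5 members (Ifitm1, Ifitm3, Oas2, Oasl2 and Samhd1; all genes 8.23%) and 0 were as much lower (all genes 0.457%). In the ZnF4 mutant 4 members were as much lower than wt (Gbp2, Gbp3, Gbp4 and Zbp1; all genes 1.78%) and 0 higher (all genes 2.55%). Between the mutants 11 members were at least 2-fold lower in the ZnF4 mutant (Ddx58, Gbp2, Gbp3, Gbp4, Ifit1, Irf7, Oas2, Oasl2, Rtp4, Samhd1 and Zbp1; all genes 8.78%) and 0 were higher (all genes 1.63%). Ifit1, Oas2 and Oasl2 entered these counts through the ZnF1 libraries alone, in which they were high. Their part in the counts that involve the ZnF1 mutant therefore supports nothing.

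The calls were recomputed without each library and under each other setting that tested the gene. Oas2 did not reach a mean of 4 RPKM, so for Oas2 that setting is not among those counted below. Of the 20 member calls in the ZnF1 mutant, those of Ifih1, Oas2, Oasl2 and Samhd1 were made whichever 1 library was left out, and those of Oas2 and Samhd1 under every other setting as well. Of the 14 in the ZnF4 mutant, Gbp2, Gbp3, Gbp4 and Zbp1 were called whichever library was left out, and Zbp1 under every setting. Of the 27 between the mutants, 13 were called whichever library was left out, and 11 of these under every setting as well (Ddx58, Dhx58, Gbp2, Gbp3, Gbp4, Irf9, Irgm2, Oas2, Parp14, Samhd1 and Zbp1). Oas2 and Oasl2 entered the test through the ZnF1 libraries alone, in which they were high, so their part in these lists supports nothing.

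**Figure D3:**
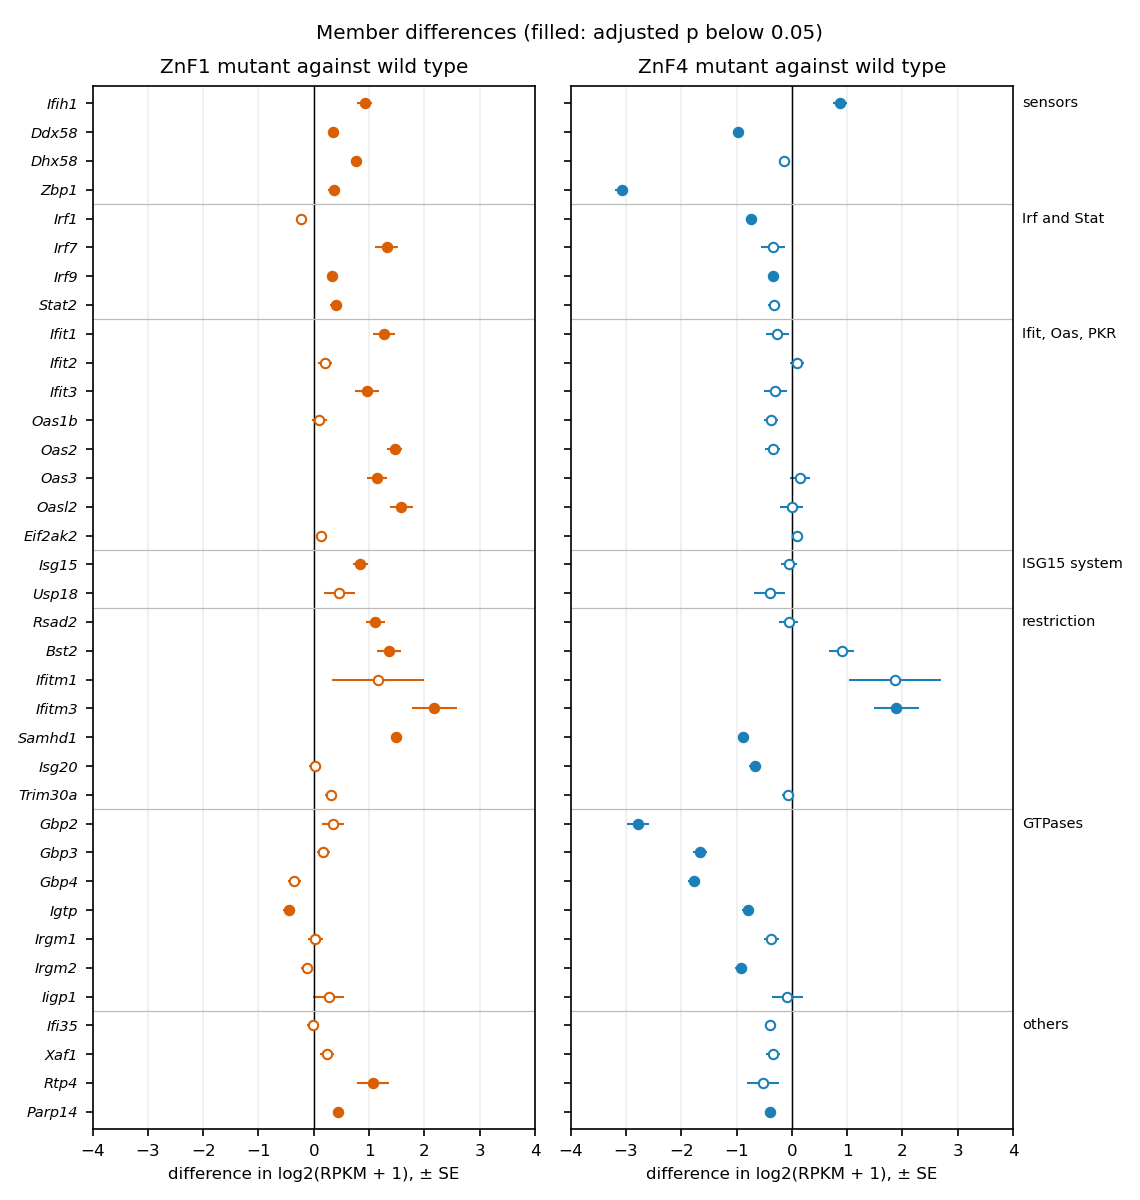
Difference from wild type in log2(RPKM + 1) with its standard error (horizontal axes) for the 36 tested members, in the ZnF1 mutant (left, orange) and the ZnF4 mutant (right, blue); filled points have an adjusted p below 0.05. In the left panel 19 filled points lie above 0 and 1 below it, and in the right panel 2 lie above and 12 below.

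The sensors were Ifih1 (MDA5) and Ddx58 (RIG-I), which detect viral RNA in the cytoplasm, their regulator Dhx58 (LGP2), and Zbp1, a sensor of Z-form nucleic acid that can start necroptosis. All 4 rose in the ZnF1 mutant (22.9% of all genes did). Ifih1 rose in the ZnF4 mutant too (10.9% of all genes), while Ddx58 and Zbp1 fell there (7.32% of all genes). Zbp1 had 12.3 and 11.9 RPKM in wt, 14.7 and 17.1 in the ZnF1 mutant, against 0.6 and 0.5 in the ZnF4 mutant. Both ZnF4 libraries were below 1 RPKM, far from the other 4. The difference from wt was -3.08 ± 0.11 in the ZnF4 mutant (adjusted p = 0.000537), the largest fall among the members, and 0.36 ± 0.11 in the ZnF1 mutant (adjusted p = 0.0494). Against the ZnF1 mutant Zbp1 was lower by -3.44 ± 0.11 (adjusted p = 0.000376). Ddx58 had 7.4 and 7.0 RPKM in wt, 9.0 and 9.8 in the ZnF1 mutant, against 3.2 and 3.1 in the ZnF4 mutant, and the 3 genotypes did not overlap. It differed from wt by -0.98 ± 0.09 in the ZnF4 mutant (adjusted p = 0.00312) and by 0.34 ± 0.09 in the ZnF1 mutant (adjusted p = 0.0382).

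Ifih1 behaved differently from Ddx58. Its level was 0.5 and 0.3 RPKM in wt, 1.5 and 1.8 in the ZnF1 mutant, against 1.5 and 1.6 in the ZnF4 mutant, so both mutants lay above wt and overlapped each other. The differences from wt were 0.92 ± 0.13 (adjusted p = 0.00486) and 0.87 ± 0.13 (adjusted p = 0.0109). Dhx58 had 3.6 and 3.8 RPKM in wt and 6.4 and 7.5 in the ZnF1 mutant, a rise of 0.76 ± 0.09 (adjusted p = 0.00366), and 3.2 and 3.3 RPKM in the ZnF4 mutant, a difference of -0.14 that did not pass (adjusted p = 0.361). The ZnF1 calls of Ddx58 and Zbp1 were lost whichever of the 6 libraries was left out (adjusted p up to 0.246 and 0.281), and that of Dhx58 without the day 28 library of wt (0.0595). The ZnF4 call of Ddx58 was lost without either wt library or the day 28 ZnF4 library (up to 0.0623), and that of Ifih1 without the day 28 wt library or either ZnF4 library (up to 0.107).

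The transcriptional regulators were Irf1, a target and mediator of interferon gamma, Irf7, which amplifies type I interferon production, and Irf9 and Stat2, subunits of the factor that binds the ISRE. Irf7, Irf9 and Stat2 rose in the ZnF1 mutant (22.9% of all genes did), and Irf1 and Irf9 fell in the ZnF4 mutant (7.32% of all genes). All 4 were lower in the ZnF4 than in the ZnF1 mutant (23.2% of all genes). Irf7 had 1.3 and 1.1 RPKM in wt, 3.3 and 6.0 in the ZnF1 mutant, against 0.5 and 1.0 in the ZnF4 mutant. Only the ZnF1 libraries stood clear of wt by more than the spread between days, by 1.32 ± 0.21 (adjusted p = 0.00755). Irf1 went the other way round: it had 17.6 and 18.7 RPKM in wt, 13.7 and 17.2 in the ZnF1 mutant (-0.23 ± 0.09, adjusted p = 0.103) and 10.2 and 10.9 in the ZnF4 mutant (-0.73 ± 0.09, adjusted p = 0.00672). Irf9 had 9.2 and 10.4 RPKM in wt, 11.2 and 13.9 in the ZnF1 mutant, against 6.8 and 8.3 in the ZnF4 mutant, with differences from wt of 0.32 ± 0.08 and -0.34 ± 0.08 (adjusted p = 0.0311 and 0.0448). Stat2 had 12.8 and 13.1 RPKM in wt, 15.8 and 19.1 in the ZnF1 mutant, against 10.6 and 9.8 in the ZnF4 mutant, and passed in the former only (0.40 ± 0.11, adjusted p = 0.0379, against -0.32 and 0.109). Between the mutants Irf7 differed by -1.66, Stat2 by -0.72, Irf9 by -0.66 and Irf1 by -0.50.

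Several of these regulator calls were lost when a library was left out. The ZnF1 calls of Irf9 and Stat2 were lost without any 1 of the wt or ZnF1 libraries (highest adjusted p 0.229 and 0.232), and that of Irf7 without the day 28 ZnF1 library (0.0621). The ZnF4 call of Irf9 was lost without any 1 of the 6 libraries (up to 0.316) and that of Irf1 without any 1 of the wt or ZnF4 libraries (up to 0.11). The Irf9 calls in both mutants were also lost without the block on day (adjusted p = 0.141 and 0.189).

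The next group holds the Ifit genes, whose proteins bind viral RNA, the Oas genes, whose proteins make 2-5A oligonucleotides that activate RNase L, and Eif2ak2 (PKR), a kinase that halts translation. Of 8 tested members 5 rose in the ZnF1 mutant (Ifit1, Ifit3, Oas2, Oas3 and Oasl2). All 5 reached the level for testing through the ZnF1 libraries alone, so that count supports nothing, and the other 3 did not pass there. None of the 8 passed against wt in the ZnF4 mutant. Between the mutants 6 of 8 were lower in the ZnF4 mutant, where 23.2% of all genes were. The same 5 are among these 6, so that count supports nothing either, and the remaining gene is Oas1b. Oasl2 had 0.7 and 0.5 RPKM in wt, 2.8 and 5.0 in the ZnF1 mutant, against 0.5 and 0.7 in the ZnF4 mutant. Its ZnF1 libraries lay above the other 4, which overlapped, and the rise was 1.58 ± 0.21 (adjusted p = 0.00425). Oas2 had 0.7 and 0.5 RPKM in wt, 3.0 and 3.8 in the ZnF1 mutant, against 0.2 and 0.3 in the ZnF4 mutant, a ZnF1 rise of 1.46 ± 0.14 (adjusted p = 0.00173). Ifit1 had 0.5 RPKM on both days in wt, 1.8 and 3.7 in the ZnF1 mutant, against 0.2 and 0.3 in the ZnF4 mutant, a ZnF1 rise of 1.27 ± 0.20 (adjusted p = 0.00755).

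Oas3 and Ifit3, at similarly low levels, also rose in the ZnF1 mutant. Oas3 had 0.5 and 0.3 RPKM in wt and 1.6 and 2.7 in the ZnF1 mutant (1.15 ± 0.18, adjusted p = 0.00795), and Ifit3 had 0.7 and 0.4 RPKM in wt and 1.5 and 2.6 in the ZnF1 mutant (0.96 ± 0.21, adjusted p = 0.0207). In the ZnF4 mutant Oas3 had 0.5 and 0.6 RPKM, overlapping wt (0.15 ± 0.18, adjusted p = 0.639), and Ifit3 had 0.3 and 0.2 RPKM, below both wt values but without passing (-0.30 ± 0.21, adjusted p = 0.385). The calls of Ifit1 and Oas3 were lost without the day 28 wt library (adjusted p 0.0865 and 0.0702), and that of Ifit3 without any 1 library except the day 21 ZnF1 library (up to 0.165). The better expressed members of the group did not pass in either mutant. Ifit2 ran from 6.6 to 8.5 RPKM over the 6 libraries, Eif2ak2 from 12.9 to 14.9 RPKM and Oas1b from 1.9 to 3.7 RPKM. Oas1b was lower in the ZnF4 than in the ZnF1 mutant (-0.48 ± 0.13, adjusted p = 0.0339), a call lost without any 1 library except the day 21 ZnF1 library (up to 0.189). The untested Oas1a reached at most 0.6 RPKM and Oasl1 at most 1.4 RPKM, each highest in the ZnF1 mutant.

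Isg15, a ubiquitin-like protein attached to other proteins during the response, had 0.9 and 1.0 RPKM in wt, 1.9 and 3.2 in the ZnF1 mutant, against 0.7 and 1.1 in the ZnF4 mutant. It rose by 0.84 ± 0.14 in the ZnF1 mutant (adjusted p = 0.00865), a call lost without the day 28 library of wt or of the ZnF1 mutant (up to 0.0772). Usp18, the protease that removes Isg15 and dampens the receptor, had 2.2 and 1.4 RPKM in wt, 1.9 and 4.0 in the ZnF1 mutant, against 1.1 on both days in the ZnF4 mutant. Its wt and ZnF1 libraries overlapped, and it passed in no comparison (0.46 ± 0.28, adjusted p = 0.249 in the ZnF1 mutant). The promoters of Isg15, Ifit1 and Rsad2 are shown as examples of genes near or below 1 RPKM in wt that rose in the ZnF1 mutant. They are the 130 bases before the annotated start, from the RefSeq promoter table of build GRCm38.p6, read 5′ to 3′ along the gene. Capitals mark matches to the ISRE core (GAAANNGAAA, either strand). Isg15 is at chr4:156200819-156200948 on the minus strand, Ifit1 at chr19:34640759-34640888 on the plus strand and Rsad2 at chr12:26456453-26456582 on the minus strand.
Isg15: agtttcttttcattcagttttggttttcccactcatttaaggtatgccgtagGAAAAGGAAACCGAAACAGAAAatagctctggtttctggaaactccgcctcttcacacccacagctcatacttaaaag
Ifit1: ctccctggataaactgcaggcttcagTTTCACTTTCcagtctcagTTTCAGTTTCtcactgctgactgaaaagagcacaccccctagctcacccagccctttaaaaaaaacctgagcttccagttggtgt
Rsad2: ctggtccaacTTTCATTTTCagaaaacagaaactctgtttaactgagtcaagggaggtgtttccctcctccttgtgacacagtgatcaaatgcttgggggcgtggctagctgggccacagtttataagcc
The Isg15 stretch holds overlapping matches in a single run, the Ifit1 stretch has separate matches, and the Rsad2 stretch has a single match on the other strand from those of Isg15. Other genes rose from similar levels in wt and are not shown. In the same stretch Ifit3 and Oas3 hold an ISRE core, and Oasl2 and Irf7 hold none.

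The restriction factors act on particular steps of viral replication. Samhd1 depletes deoxynucleotides, Bst2 (tetherin) holds budding particles at the surface, the Ifitm proteins block membrane fusion, Rsad2 (viperin) makes a chain-terminating nucleotide and Isg20 is an RNA exonuclease. In the ZnF1 mutant 4 of 7 tested members rose (Samhd1, Rsad2, Bst2 and Ifitm3), of which Rsad2 was tested through the ZnF1 libraries alone, and in the ZnF4 mutant Ifitm3 rose while Samhd1 and Isg20 fell. Over all genes 22.9% rose in the ZnF1 mutant, and 10.9% rose and 7.32% fell in the ZnF4 mutant. Samhd1 had 13.5 and 11.3 RPKM in wt, 38.1 and 35.1 in the ZnF1 mutant, against 6.0 and 6.5 in the ZnF4 mutant, with no overlap between the genotypes. It differed from wt by 1.49 ± 0.10 in the ZnF1 mutant (adjusted p = 0.00102) and by -0.88 ± 0.10 in the ZnF4 mutant (adjusted p = 0.00578), and between the mutants by -2.37 ± 0.10 (adjusted p = 0.000376). Rsad2 had 0.2 RPKM on both days in wt, 1.1 and 2.2 in the ZnF1 mutant, against 0.1 and 0.2 in the ZnF4 mutant, a ZnF1 rise of 1.11 ± 0.17 (adjusted p = 0.00702). The order of Samhd1 over the genotypes is also that of the macrophage sum given above, and a link between them was not tested.

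Bst2, Ifitm1 and Ifitm3 had values above both wt libraries in both mutants, but only Ifitm3 passed in both. Bst2 had 21.9 and 15.7 RPKM in wt, 44.7 and 54.3 in the ZnF1 mutant, against 29.9 and 41.8 in the ZnF4 mutant, with differences of 1.36 ± 0.22 (adjusted p = 0.00855) and 0.90 ± 0.22 (adjusted p = 0.0504). The latter missed the threshold by little and passed under 4 other settings, quantile scaling, median-ratio scaling, the higher filter and no block on day (down to 0.0409). Ifitm3 had 17.3 and 12.7 RPKM in wt, 64.8 and 77.4 in the ZnF1 mutant, against 34.7 and 94.9 in the ZnF4 mutant. Both mutants lay above wt by 2.18 ± 0.41 (adjusted p = 0.0135) and 1.89 ± 0.41 (adjusted p = 0.036), and the ZnF4 libraries were far apart from each other. Ifitm1 was split in the same way, with 1.3 and 1.6 RPKM in wt, 4.4 and 4.5 in the ZnF1 mutant, against 1.8 and 27.7 in the ZnF4 mutant. It passed in no comparison (1.16 ± 0.83 in the ZnF1 and 1.87 ± 0.83 in the ZnF4 mutant). Without the day 28 ZnF4 library Ifitm1 was higher in the ZnF1 mutant by 1.16 (adjusted p = 0.0141), and its difference between the mutants went from 0.72 to -0.91 (adjusted p = 0.0236). Without the day 21 ZnF4 library it was higher in the ZnF4 mutant than in wt by 3.50 (adjusted p = 0.0351) and than in the ZnF1 mutant by 2.35 (adjusted p = 0.0196).

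For the remaining restriction factors the differences were smaller. Isg20 had 9.5 and 11.2 RPKM in wt, 8.6 and 12.7 in the ZnF1 mutant, against 5.7 and 6.6 in the ZnF4 mutant, a ZnF4 fall of 0.67 ± 0.11 on the log2 scale (adjusted p = 0.0165). Trim30a ran from 18.7 to 27.7 RPKM and passed between the mutants only (-0.38 ± 0.10, adjusted p = 0.0265). The untested Mx1 had 0.5 and 1.3 RPKM in the ZnF1 mutant and at most 0.1 elsewhere, and Mx2 ran from 0.2 to 0.7 RPKM. Calls against wt were lost for Rsad2 without the day 28 wt library (adjusted p 0.0774), for Bst2 in the ZnF1 mutant without either ZnF1 library (up to 0.0922), and for Ifitm3 in the ZnF1 mutant without the day 28 wt or either ZnF1 library (up to 0.131). ZnF4 calls were lost for Ifitm3 without any 1 library except the day 21 ZnF4 library (up to 0.226), for Samhd1 without either wt library (up to 0.0835) and for Isg20 without any 1 of the wt or ZnF4 libraries (up to 0.184). The Isg20 call was also lost without the block on day (0.0716), and the Trim30a call without any 1 library except the day 21 ZnF4 library (up to 0.193).

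The interferon-inducible GTPases are the guanylate-binding proteins (Gbp) and the immunity-related GTPases (Irgm1, Irgm2, Igtp and Iigp1), which assemble on vacuoles of intracellular pathogens and are classic targets of interferon gamma. In the ZnF4 mutant 5 of 7 tested members fell (Gbp2, Gbp3, Gbp4, Irgm2 and Igtp), where 7.32% of all genes did. None rose in the ZnF1 mutant (22.9% of all genes), and Igtp fell (15.2% of all genes). Gbp2 had 58.4 and 90.9 RPKM in wt, 84.7 and 102.3 in the ZnF1 mutant, against 10.7 and 8.8 in the ZnF4 mutant. The wt and ZnF1 libraries overlapped, and both ZnF4 libraries lay far below them, by -2.79 ± 0.20 against wt (adjusted p = 0.00167) and -3.14 ± 0.20 against the ZnF1 mutant (adjusted p = 0.000531). Gbp3 had 37.8 and 49.5 RPKM in wt, 46.9 and 50.5 in the ZnF1 mutant, against 13.4 and 12.6 in the ZnF4 mutant, a ZnF4 fall of 1.66 ± 0.12 on the log2 scale against wt (adjusted p = 0.00158). Gbp4 had 6.9 and 6.4 RPKM in wt, 5.8 and 4.3 in the ZnF1 mutant, against 1.3 and 1.2 in the ZnF4 mutant, a ZnF4 fall of 1.77 ± 0.11 against wt (adjusted p = 0.00124). The corresponding ZnF1 differences were 0.35 ± 0.20 for Gbp2 (adjusted p = 0.229), 0.17 ± 0.12 for Gbp3 (adjusted p = 0.319) and -0.35 ± 0.11 for Gbp4 (adjusted p = 0.0624). The last of these passed under quantile scaling (adjusted p = 0.0213).

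The Gbp genes lie in clusters, and in the gene order of RefSeq GRCm38.p6 Gbp5, Gbp7, Gbp3, Gbp2b (an alias of Gbp1) and Gbp2 are direct neighbours on chromosome 3 and Gbp8, Gbp9, Gbp4, Gbp10 and Gbp6 on chromosome 5. Of the genes that are no members, Gbp7 had 190.4 and 208.5 RPKM in wt, 208.6 and 181.3 in the ZnF1 mutant, against 60.6 and 50.2 in the ZnF4 mutant (-1.83 ± 0.11 against wt, adjusted p = 0.0012). Gbp5 had 21.9 and 24.8 RPKM in wt, 32.6 and 27.7 in the ZnF1 mutant, against 5.9 and 5.7 in the ZnF4 mutant (-1.84 ± 0.11, adjusted p = 0.00114). Gbp9, named after its values were seen, had 5.6 and 5.1 RPKM in wt and 1.6 on both days in the ZnF4 mutant (-1.29 ± 0.09, adjusted p = 0.00158). In both clusters all tested Gbp genes were thus lower in the ZnF4 mutant than in wt. Gbp8 and Gbp6 were at most 0.4 RPKM, and Gbp1 was listed at 0 in both ZnF4 libraries and had 0.2 and 0.5 RPKM in wt. These paralogs share sequence, and the sources used here do not say how reads matching several of them were counted, so the split between single Gbp genes is uncertain. Every one of the Gbp2, Gbp3 and Gbp4 falls against wt lost its call when no filter on low values was set (adjusted p up to 0.0757).

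Among the immunity-related GTPases the changes were smaller. Igtp had 16.2 and 16.0 RPKM in wt, 10.4 and 12.7 in the ZnF1 mutant, against 9.1 and 8.6 in the ZnF4 mutant, with differences from wt of -0.45 ± 0.11 (adjusted p = 0.0267) and -0.80 ± 0.11 (adjusted p = 0.00883). Irgm2 had 6.6 and 6.5 RPKM in wt, 5.6 and 6.2 in the ZnF1 mutant, against 3.2 and 2.8 in the ZnF4 mutant, and fell in the latter by 0.92 ± 0.10 (adjusted p = 0.00535). Igtp was thus lower than wt in both mutants and Irgm2 in the ZnF4 mutant, where the other member pair did not pass: Irgm1 ran from 21.2 to 33.8 RPKM (-0.37 ± 0.13, adjusted p = 0.121) and Iigp1 from 0.2 to 1.6 RPKM. The Igtp calls were lost in the ZnF1 mutant without either wt library or the day 21 ZnF1 library (adjusted p up to 0.21) and in the ZnF4 mutant without any 1 of the wt or ZnF4 libraries (up to 0.129). The Irgm2 call was lost without either wt library or the day 28 ZnF4 library (up to 0.0832). Under quantile scaling Irgm2 also passed in the ZnF1 mutant.

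Promoters of 5 genes that fell in the ZnF4 mutant are shown to set their elements side by side. They are again the 130 bases before the annotated start (RefSeq, GRCm38.p6, 5′ to 3′ along the gene), and capitals mark the ISRE core or the GAS core (TTCNNNGAA, which reads the same on both strands). All lie on the plus strand: Gbp2 at chr3:142620533-142620662, Gbp3 at chr3:142559914-142560043, Irf1 at chr11:53769884-53770013, Igtp at chr11:58199426-58199555 and Irgm2 at chr11:58214847-58214976. Gbp3 and Irf1 have several annotated starts, and the window that holds a match is shown.
Gbp2: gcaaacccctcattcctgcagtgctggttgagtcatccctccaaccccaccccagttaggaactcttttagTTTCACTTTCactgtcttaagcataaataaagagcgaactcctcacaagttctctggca
Gbp3: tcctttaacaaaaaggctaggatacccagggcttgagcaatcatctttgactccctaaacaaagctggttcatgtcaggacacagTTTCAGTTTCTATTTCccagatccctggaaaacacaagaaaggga
Irf1: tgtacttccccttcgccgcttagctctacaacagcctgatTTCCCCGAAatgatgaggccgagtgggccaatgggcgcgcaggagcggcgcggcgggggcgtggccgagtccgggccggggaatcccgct
Igtp: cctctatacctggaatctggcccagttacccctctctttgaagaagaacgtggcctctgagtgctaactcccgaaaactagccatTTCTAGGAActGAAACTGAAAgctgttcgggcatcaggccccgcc
Irgm2: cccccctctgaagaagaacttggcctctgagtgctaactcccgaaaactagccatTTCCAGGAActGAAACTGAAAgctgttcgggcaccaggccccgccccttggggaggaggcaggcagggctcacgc
Gbp2 and Gbp3 hold ISRE cores and no GAS core in these stretches, Irf1 holds a GAS core and no ISRE core, and Igtp and Irgm2 hold a GAS core followed closely by an ISRE core. Igtp and Irgm2 are neighbours on chromosome 11, and the longest run of letters shared by their stretches is 38 bases. Other genes that fell in the ZnF4 mutant and have an entry are not shown. Of these, Irf9, Ddx58 and Samhd1 hold neither core in such stretches, and Isg20 holds a GAS core.

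Of the 42 members, 30 had an entry in the promoter table, with 37 windows of 300 bases (250 before to 50 after the start). An ISRE core lay in 19 of the 37 windows (51.4%), against 3.44% of all 32851 windows in the table. A GAS core lay in 29.7% of the member windows and in 8.3% of all windows. The core TGGGAA, which Ikaros is known to bind, lay in 32.4% of the member windows and in 25.6% of all. Counted by gene, the ISRE core was found in 10 of the 14 members that rose in the ZnF1 mutant and have an entry (71.4%; Bst2, Ddx58, Ifih1, Ifit1, Ifit3, Ifitm3, Isg15, Oas3, Rsad2 and Stat2), and in 5 of 9 that fell in the ZnF4 mutant (55.6%; Ddx58, Gbp2, Gbp3, Igtp and Irgm2). The GAS core was found in 3 of those 14 (21.4%; Bst2, Ifitm3 and Samhd1) and in 5 of those 9 (55.6%; Igtp, Irf1, Irgm2, Isg20 and Samhd1). TGGGAA was found in 4 of the 14 (28.6%) and 3 of the 9 (33.3%). Of all 30 members with an entry, 18 held the ISRE core (60%), 11 the GAS core (36.7%) and 12 TGGGAA (40%). Among the 14, Ifit1, Ifit3, Oas3, Oasl2 and Rsad2 were tested through the ZnF1 libraries alone. They count as risen partly through that filter, and a link of a core to a rise was not tested. Over all 27025 genes in the table the shares by gene were 3.99% for the ISRE core, 9.55% for the GAS core and 28.3% for TGGGAA, so the TGGGAA share of the 14 is that of all genes. Matches to the ISRE and GAS cores overlapped in Bst2 and Ifitm3, and TGGGAA overlapped an ISRE core in Gbp3 and a GAS core in Eif2ak2. A match is a string of letters and no evidence of binding. The members without an entry were Parp14, Zbp1, Oas2, Gbp4, Mx2, Iigp1, Oas1b, Dhx58, Rtp4, Mx1, Usp18 and Gbp6.

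**Figure D4:**
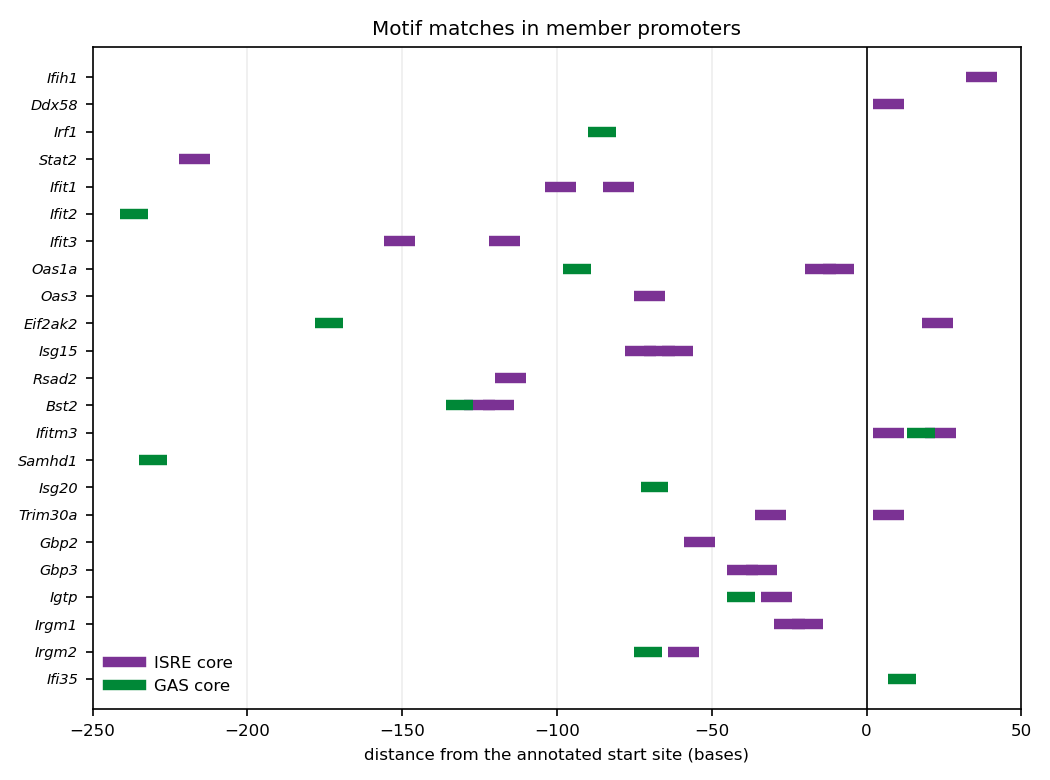
Position of matches to the ISRE core (purple) and the GAS core (green) around the annotated start site, in bases (horizontal axis, 250 before to 50 after), for the members with a match; 1 row per gene. The matches of Gbp2, Gbp3, Igtp, Irgm1 and Irgm2 lie close before the start, the farthest beginning 75 bases before it.

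The last members have mixed functions. Rtp4, a chaperone for membrane receptors, had 3.3 and 2.1 RPKM in wt, 5.0 and 8.8 in the ZnF1 mutant, against 1.8 and 1.3 in the ZnF4 mutant, and rose in the ZnF1 mutant by 1.07 ± 0.29 (adjusted p = 0.039). Parp14, a mono-ADP-ribosyltransferase, had 9.7 and 10.0 RPKM in wt, 13.2 and 14.2 in the ZnF1 mutant, against 7.7 and 6.9 in the ZnF4 mutant, with differences of 0.44 ± 0.09 (adjusted p = 0.0188) and -0.39 ± 0.09 (adjusted p = 0.0453). Its 3 genotypes did not overlap. Xaf1, a pro-apoptotic protein, ran from 3.1 to 6.6 RPKM and Ifi35 from 14.3 to 22.7 RPKM, and both passed between the mutants only (-0.57 ± 0.12, adjusted p = 0.0129, and -0.38 ± 0.10, adjusted p = 0.031). The untested Ifi44 was at most 0.6 RPKM. The Rtp4 call was lost without any 1 library except the day 21 ZnF1 library (adjusted p up to 0.269). The Parp14 calls were lost in the ZnF1 mutant without any 1 of the wt or ZnF1 libraries (up to 0.163) and in the ZnF4 mutant without any 1 of the 6 (up to 0.288). The call of Xaf1 between the mutants was lost without the day 28 ZnF1 or either ZnF4 library (up to 0.0926), and that of Ifi35 without any 1 library except the day 21 ZnF1 library (up to 0.2).

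Between the mutants, the calls that some left-out library removed include several in the antiviral groups. Those of Ifit1, Oasl2 and Rsad2 were lost without the day 28 ZnF4 library (adjusted p 0.0502, 0.0509 and 0.058), and those of Ifit3, Oas3, Isg15 and Rtp4 without either ZnF4 library (up to 0.0811, 0.0901, 0.0579 and 0.106). The calls of Isg20 and Irf1 were lost without the day 28 library of either mutant (up to 0.058 and 0.0811), and that of Igtp (-0.34, adjusted p = 0.0499) without any 1 of the 6 (up to 0.293). Ddx58, Dhx58, Zbp1, Irf7, Irf9, Stat2, Oas2, Samhd1, Gbp2, Gbp3, Gbp4, Irgm2 and Parp14 were called whichever library was left out. Of these, Oas2 entered the test through the ZnF1 libraries alone.

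No interferon transcript was measured above the rounding step of the table. Of 19 interferon genes in the table, 17 were listed at 0 in every library, and the highest value of the others was 0.1 RPKM. Of 6 receptor genes 5 were tested, and Il28ra, a chain of the interferon lambda receptor, stayed between 0.1 and 0.5 RPKM. In the ZnF1 mutant 3 of the 5 rose (22.9% of all genes did), in the ZnF4 mutant 3 fell (7.32% of all genes), and all 5 were lower in the ZnF4 than in the ZnF1 mutant (23.2% of all genes). Ifngr1, the ligand-binding chain of the interferon gamma receptor, had 73.9 and 75.0 RPKM in wt, 126.4 and 134.3 in the ZnF1 mutant, against 35.6 and 35.8 in the ZnF4 mutant. The genotypes were far apart and the days close together, with differences from wt of 0.80 ± 0.07 (adjusted p = 0.00134) and -1.04 ± 0.07 (adjusted p = 0.00121), and both calls were made under every setting and whichever library was left out. Ifngr2, the signalling chain, had 45.4 and 47.0 RPKM in wt, 61.3 and 52.3 in the ZnF1 mutant (0.29 ± 0.09, adjusted p = 0.051) and 32.9 and 31.0 in the ZnF4 mutant (-0.52 ± 0.09, adjusted p = 0.0166). Il10rb, a chain of the interferon lambda and interleukin-10 receptors, had 19.9 and 18.3 RPKM in wt, 32.2 and 37.2 in the ZnF1 mutant, against 10.9 and 11.8 in the ZnF4 mutant (0.83 ± 0.10 and -0.70 ± 0.10, adjusted p = 0.00304 and 0.00949).

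Of the type I receptor chains, Ifnar2 passed in the ZnF1 mutant, and neither passed against wt in the ZnF4 mutant. Ifnar2 had 33.3 and 29.7 RPKM in wt, 40.4 and 41.3 in the ZnF1 mutant (0.37 ± 0.08, adjusted p = 0.0204) and 27.1 and 27.8 in the ZnF4 mutant (-0.19 ± 0.08, adjusted p = 0.177). Ifnar1 ran from 14.9 to 20.6 RPKM and did not pass against wt in either mutant. The call of Ifnar2 was lost without any 1 of the wt or ZnF1 libraries (highest adjusted p 0.181). The ZnF4 calls of Ifngr2 and Il10rb were lost without any 1 of the wt or ZnF4 libraries (up to 0.166 and 0.104). Ifngr1 is also abundant in macrophages, whose marker sum followed the same order of genotypes, and what part macrophage RNA had in its values was not tested.

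Of the Janus kinases, which carry the signal from the receptors, Jak2 and Tyk2 rose in the ZnF1 mutant. Stat3, a transcription factor they activate, fell in the ZnF4 mutant. Stat3 had 25.0 and 23.5 RPKM in wt and 18.0 and 19.2 in the ZnF4 mutant (-0.37 ± 0.08, adjusted p = 0.0371). Jak2 and Tyk2 differed from wt by 0.54 ± 0.07 and 0.37 ± 0.08 in the ZnF1 mutant (adjusted p = 0.00451 and 0.0175). Jak1, the most abundant of the kinases, ran from 69.8 to 81.9 RPKM and passed in no comparison. The ZnF4 call of Stat3 was lost without any 1 of the 6 libraries (highest adjusted p 0.285), and those of Jak2 and Tyk2 without any 1 of the wt or ZnF1 libraries (up to 0.0707 and 0.154).

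**Figure D5:**
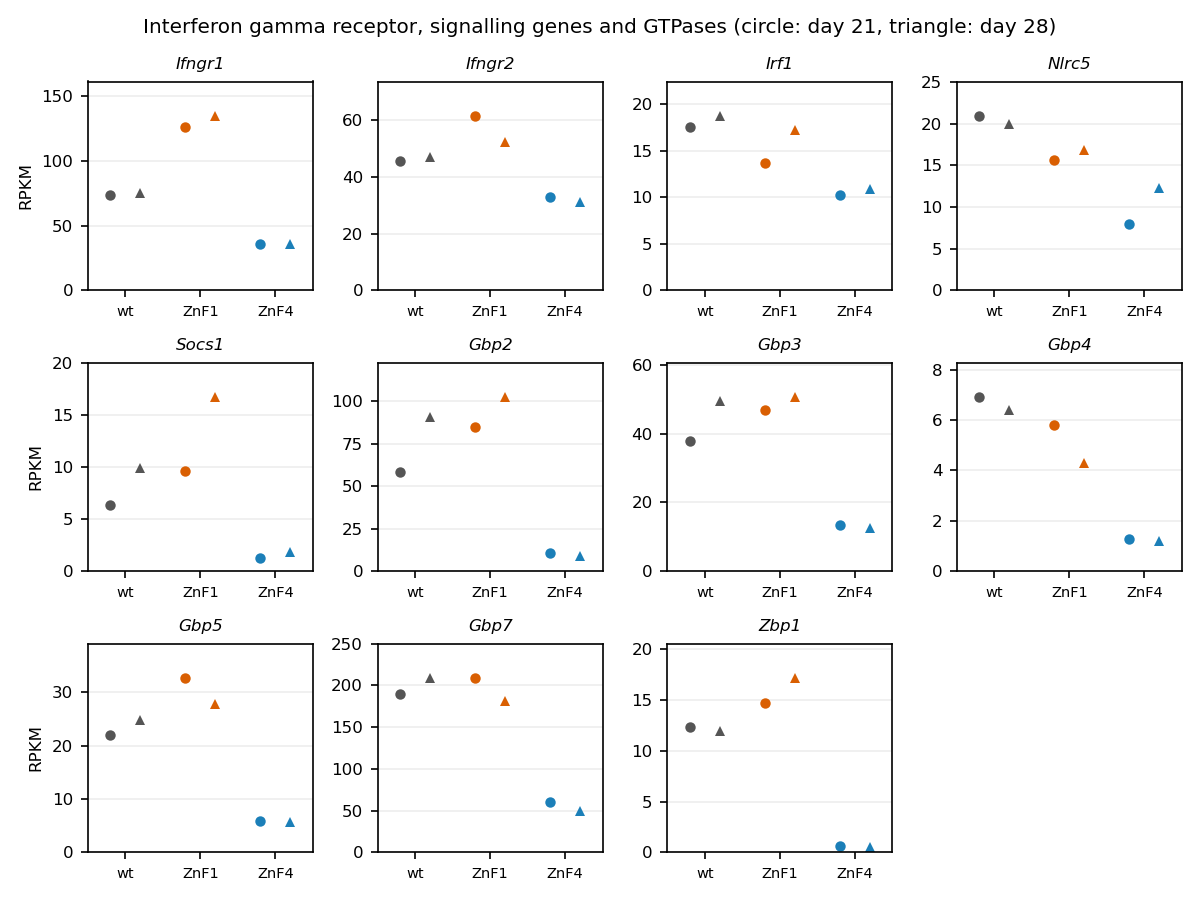
RPKM (vertical axes, from 0) of the interferon gamma receptor chains, Irf1, Nlrc5, Socs1, 5 Gbp genes and Zbp1 in each library, by genotype; circles are day 21 and triangles day 28. In every panel both ZnF4 points lie below both wild type points, and the ZnF1 points are highest for Ifngr1, Ifngr2, Gbp5 and Zbp1.

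The next list holds genes that restrain or tune the pathway. Socs1, an inhibitor of Jak kinases that interferon itself induces, had 6.4 and 9.9 RPKM in wt, 9.6 and 16.7 in the ZnF1 mutant, against 1.3 and 1.9 in the ZnF4 mutant. It differed from wt by 0.61 ± 0.12 (adjusted p = 0.0159) and -1.80 ± 0.12 (adjusted p = 0.0014), and between the mutants by -2.41 ± 0.12 (adjusted p = 0.000407). Socs3, which restrains Stat3 signalling, had 12.1 and 15.1 RPKM in wt, 26.3 and 33.9 in the ZnF1 mutant, against 7.8 and 12.0 in the ZnF4 mutant (1.09 ± 0.09 and -0.44 ± 0.09, adjusted p = 0.00142 and 0.0314). Ptpn6 (SHP-1), a phosphatase, went up in both mutants, from 68.5 and 73.9 RPKM in wt to 92.6 and 86.8 in the ZnF1 mutant, and to 114.7 and 109.5 in the ZnF4 mutant (0.33 ± 0.08 and 0.65 ± 0.08, adjusted p = 0.0285 and 0.00678). Nlrc5, the activator of MHC class I genes, fell in the ZnF4 mutant by 0.97 ± 0.16 (adjusted p = 0.0153) from 20.9 and 20.0 to 8.0 and 12.3 RPKM. Of the 10 genes of this list, 5 rose and 1 fell (Ptpn2) in the ZnF1 mutant (22.9% and 15.2% of all genes), and 1 rose and 4 fell in the ZnF4 mutant (10.9% and 7.32%). Lost without single libraries were the ZnF1 call of Socs1 and both calls of Ptpn6 (any 1 library of the groups compared, adjusted p up to 0.137, 0.244 and 0.106), the ZnF4 call of Socs3 (any 1 of the 6, up to 0.265) and that of Nlrc5 (any 1 library except the day 28 ZnF4 library, up to 0.158). Without the block on day the ZnF1 call of Socs1 and the ZnF4 call of Socs3 were lost too.

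The genes that detect nucleic acid and lead to interferon rose in 7 of 14 cases in the ZnF1 mutant (22.9% of all genes) and fell in none (15.2%), and in the ZnF4 mutant 3 of 14 fell (7.32%) and none rose (10.9%). Tlr3, among the 7, was below 1 RPKM in all wt and ZnF4 libraries and was tested through the ZnF1 libraries alone. Its part in that count supports nothing. Tlr7, the endosomal receptor for single-stranded RNA, had 1.9 and 2.1 RPKM in wt, 8.7 and 8.6 in the ZnF1 mutant, against 0.7 and 1.0 in the ZnF4 mutant. Its difference from wt was 1.69 ± 0.11 in the ZnF1 mutant (adjusted p = 0.001) and -0.70 ± 0.11 in the ZnF4 mutant (adjusted p = 0.012). Irf5, which acts below the Toll-like receptors, had 45.6 and 42.2 RPKM in wt and 67.9 and 68.3 in the ZnF1 mutant (0.62 ± 0.07, adjusted p = 0.00266), and Tlr9 rose from 8.5 and 10.1 to 16.3 and 15.0 RPKM (0.70 ± 0.11, adjusted p = 0.00667). Tmem173 (STING) had 50.7 and 54.4 RPKM in wt and 28.6 and 37.0 in the ZnF4 mutant (-0.67 ± 0.17, adjusted p = 0.0495). Tlr7 and Irf5 are also macrophage genes, and the macrophage sum given above was highest in the ZnF1 mutant. What part macrophage RNA had in their values was not tested. The ZnF4 calls of Tlr7 and Tmem173 were lost without any 1 of the wt or ZnF4 libraries (highest adjusted p 0.128 and 0.303). The ZnF1 call of Irf5 was lost without the day 28 wt library (0.0567) and that of Tlr9 without the day 21 library of wt or the ZnF1 mutant (up to 0.0831).

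A further list held 53 interferon-induced genes that are no members, of which 43 were tested. In the ZnF1 mutant 16 were higher and 2 lower, and in the ZnF4 mutant 2 were higher and 15 lower. Over all 74 tested pathway genes outside the members, 33 were higher and 3 lower in the ZnF1 mutant, and 3 were higher and 24 lower in the ZnF4 mutant. At least Tlr3, Ifi204, Cxcl10 and Ddx60, named for this reason, were below 1 RPKM in all wt and ZnF4 libraries. They entered the test through the ZnF1 libraries alone, so their part in the ZnF1 counts supports nothing. Over all genes tested the shares were 22.9% higher and 15.2% lower for ZnF1, against 10.9% higher and 7.32% lower for ZnF4. Epsti1, an interferon-induced gene of stroma and leukocytes, had 20.1 RPKM on both days in wt, 40.4 and 35.5 in the ZnF1 mutant, against 8.3 and 7.4 in the ZnF4 mutant, and its differences of 0.88 ± 0.08 and -1.26 ± 0.08 passed under every setting and whichever library was left out (adjusted p up to 0.0416). Sp100, a nuclear body protein, had 21.2 and 17.7 RPKM in wt, 26.3 and 30.0 in the ZnF1 mutant, against 5.0 and 4.3 in the ZnF4 mutant (-1.85 ± 0.12 in the latter, adjusted p = 0.00135, and 0.0513 without the day 28 ZnF4 library). Parp12, an antiviral ADP-ribosyltransferase, was among the 2 that rose in the ZnF4 mutant, with 1.6 and 0.9 RPKM in wt, 5.0 and 5.3 in the ZnF1 mutant, against 4.2 and 3.3 in the ZnF4 mutant (1.47 ± 0.15 and 1.09 ± 0.15, adjusted p = 0.00198 and 0.00877). The ZnF4 call of Parp12 was lost without any 1 of the wt or ZnF4 libraries (up to 0.104).

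Between day 28 and day 21, over the 3 genotypes, no member passed, where 0% of all genes were called higher and 0% lower by limma. At an unadjusted p below 0.05, 4 of 36 members and 1631 of all 11379 tested genes (14.3%) differed. The median member difference was 0.11, with 29 of 36 above 0, against a median of 0.03 with 6701 of 11379 above 0 for all genes. Without either ZnF1 library the member median was -0.01. Within the ZnF1 mutant the day 28 library was the higher of the pair for Irf7, Oasl2, Ifit1, Ifit3, Rsad2, Isg15, Usp18 and Rtp4, as their values above show. The same held for every other tested member except Gbp4 (5.8 and 4.3 RPKM) and Samhd1 (38.1 and 35.1 RPKM). Summed over all symbols, that library was also the higher of the pair (275194.5 and 293559.4 RPKM). The share of all genes that were higher in it was not computed. With 1 library per genotype and day, whether a genotype difference changed with the day was not tested.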

How the data were processed

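Poly(A) RNA of 6 libraries was made into fragmented double-stranded cDNA, per the labels' protocols, with no strand-marking step named, so reads of overlapping antisense genes cannot be told apart. TopHat and bedtools with the build mm9 are named in the submitters' processing notes, with no versions. The authors deposited RPKM values rounded to 1 decimal for 26531 transcript rows, of unknown depth; a single row with no gene name (1 row) was not used. Values were transformed as log2(RPKM + 1), which understates changes of low genes, and 11379 genes at 1 RPKM or more in at least 2 libraries were tested. Genotype and day were fitted to all 6 libraries with limma (version 3.58.1, R 4.3.3) and a mean-variance trend (2 residual degrees of freedom, prior 3.22). P-values were adjusted by Benjamini-Hochberg over all tested genes, with a threshold of 0.05. The steps were tested on simulated data.

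The day is the replicate number in the labels and entered the fit as a block. Across genes, the day 28 minus day 21 changes of the genotypes correlated pairwise at 0.433, 0.249 and 0.226. The members and gene lists were chosen with earlier results of these data known. All members are named, with up to 4 genes of the smallest p per pathway list and comparison, and a fixed set of receptors, kinases and Socs1. Genes named otherwise are said to be. Some genes of these lists are not reported here. Alternatives were a pseudocount of 0.1, no filter, a mean of at least 4 RPKM, quantile and median-ratio scaling, the mean of all rows of a symbol, no block, and leaving out each library.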

Additional observations from a re-analysis of the deposited data

Results flagged for a closer look

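In 4 cases a member's difference between 2 genotypes pointed one way on day 21 and the other way on day 28 by at least 0.25 on the log2(RPKM + 1) scale. With 1 library per genotype and day the change with the day was not tested. Iigp1, an immunity-related GTPase at 1.6 RPKM or less in every library, differed from wt by -0.26 on day 21 and 0.79 on day 28 in the ZnF1 mutant, and by -0.58 and 0.42 in the ZnF4 mutant. Ifitm1 differed between the ZnF4 and the ZnF1 mutant by -0.95 on day 21 and 2.38 on day 28. Ifitm3 differed between the same mutants by -0.88 and 0.29. For both Ifitm genes the day 28 ZnF4 library held the highest value of all 6, 27.7 RPKM for Ifitm1 and 94.9 RPKM for Ifitm3.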

How the results depend on the processing

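Depth limits the low members: values are known to 0.1 RPKM only, and no counting interval can be given. With no filter on low values all 22098 symbols and 42 members were tested. In the ZnF1 mutant against wt the calls fell to 2087 of all genes higher and 624 lower. Of the members 3 were then higher and 0 lower, so members were no longer higher more often than all genes. In the ZnF4 mutant the calls fell to 295 of all genes higher and 189 lower, and to 0 members higher and 1 lower (Zbp1). Between the mutants they fell to 1401 of all genes higher and 2430 lower, and to 11 members lower. Between the days 7 genes were called higher and 2 lower. With a mean of at least 4 RPKM, which tests fewer genes, 1406 of all genes and 8 members were higher in the ZnF1 mutant. Between the mutants 1603 of all genes and 17 members were then lower, with a member median of -0.66. Quantile scaling gave 2913 genes and 3 members lower in the ZnF1 mutant, a member median of -0.60 between the mutants, and counts of members 2-fold apart on both days of 3 higher in the ZnF1 mutant and 7 lower between the mutants. A pseudocount of 0.1 raised those counts to 13 higher in the ZnF1 mutant and 2 higher in the ZnF4 mutant, and the ZnF4 median was -0.42. Taking the mean of all rows of a symbol left 1 member higher in the ZnF4 mutant.

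Leaving out each library in turn gave, for the ZnF1 mutant against wt, 1266 to 2545 genes higher and 132 to 1930 lower, and 6 to 17 members higher and 0 to 1 lower. For the ZnF4 mutant it gave 203 to 707 genes higher and 143 to 523 lower, 0 to 2 members higher and 4 to 10 lower, and a member median of -0.45 to -0.18. Between the mutants it gave 752 to 1854 genes higher and 1674 to 2180 lower, 0 to 1 members higher (Ifitm1) and 14 to 27 lower, and a member median of -0.90 to -0.65. The difference of Ifitm1 between the mutants turned to -0.91 without the day 28 ZnF4 library and was 2.35 without the day 21 one. Without the replicate block on day, 18 members were higher and 1 lower in the ZnF1 mutant, 3 higher and 10 lower in the ZnF4 mutant, and 26 lower between the mutants. Values that passed no test changed sign in 100 cases over all settings. For all these changes of number the cause was not tested, beyond the fewer genes or libraries that a setting leaves.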
